A study of Mus musculus with 2 samples.

Results

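Regulatory T cells of gonadal white adipose tissue (gWAT) were taken from single-cell RNA sequencing of its stromal vascular fraction (SVF), the cells that remain once mature adipocytes have floated off the digested tissue. Barcodes with 500 or more genes detected were kept if no more than 10% of their UMIs were mitochondrial, a UMI (unique molecular identifier) being 1 captured transcript. Of these cells, the members carried at least 1 UMI of Cd3d, Cd3e or Cd3g and either at least 1 Foxp3 UMI or at least 2 Ctla4 UMIs. They had no UMI of Cd8a, Cd8b1 or Cd79a, fewer than 10 UMIs of Dcn and at most 2 UMIs of C1qa, C1qb and C1qc together. This gave 51 cells of the 4839 that passed the filters: 40 of 3881 in the littermate control library and 11 of 958 in the Adipo-Pgam1 KO library.

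The study deleted Pgam1, which encodes the glycolytic enzyme phosphoglycerate mutase 1, in adipocytes by means of Adipoq-Cre and a floxed Pgam1 allele. There was 1 library from Adipo-Pgam1 KO mice and 1 from littermates, which the labels call wildtype and the methods describe as floxed Pgam1 without Cre. All mice were male, of the C57BL/6 strain and 13 weeks old by the labels, and no further treatment is given. The adiponectin promoter drives Cre in adipocytes, so the T cells described here are not the cells in which the allele was meant to be deleted. How many mice went into each library is not given in the sources used here. With 1 library per genotype no test between genotypes was possible. Every interval below is an exact 95% interval for counting error alone, and genotype cannot be told apart from mice, digestion or droplet run.

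Regulatory T cells are CD4 T cells whose identity depends on the transcription factor Foxp3 and which restrain other immune cells, in part through the inhibitory receptor Ctla4 and through capture of interleukin-2 by Il2ra (CD25). In visceral fat they form a long-studied tissue population that carries the IL-33 receptor ST2, the product of Il1rl1, together with the transcription factor Gata3, the inhibitory receptor Klrg1 and the growth factor amphiregulin, the product of Areg. IL-33 from stromal cells maintains them. The same receptor and transcription factor are hallmarks of group 2 innate lymphoid cells, which therefore serve as a reference below.

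The 40 control members held 227041 UMIs in all, with a median of 4085 per cell and a range from 2022 to 24270. The 11 KO members held 55045 UMIs, with a median of 5056 and a range from 2796 to 7008. A level is given as CPM, the UMIs of a gene per 1000000 UMIs of the group, and 1 UMI was worth 4.4 CPM in the control and 18.2 CPM in the KO members. Counts under 3 UMIs, which correspond to 13.2 and 54.5 CPM, were read only against that limit of 3 UMIs. The libraries shared 9 barcodes, none of them a member. Of the control members 2 had over 20000 UMIs and held 21.1% of all control member UMIs, and 2 others took over 10% of their UMIs from haemoglobin genes. No KO member did either.

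Foxp3 (chromosome X, 7573644 to 7595245) and Ctla4 (chromosome 1, 60887000 to 60915832) chose these cells, so their values are a description only. Foxp3 gave 71 UMIs over the control members, from 0 to 7 per cell with a median of 1, and 16 over the KO members, from 0 to 6 with a median of 0. Ctla4 had 147 UMIs with a median of 3 per control cell and 55 UMIs with a median of 5 per KO cell. Foxp3 was detected in 27 of the 40 control and 5 of the 11 KO members, and the other 13 and 6 entered by Ctla4 alone. Just inside the thresholds lay 4 control cells with 1 Foxp3 UMI and under 2 of Ctla4, and 4 control and 2 KO cells with exactly 2 Ctla4 UMIs and no Foxp3. Just outside lay 9 control and 7 KO cells with a single Ctla4 UMI and no Foxp3, of which 4 and 5 carried Ikzf2, and 1 and 0 carried Il1rl1. A further 8 control and 1 KO cells met every other condition with 10 to 20% mitochondrial UMIs.

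The label was checked against markers that the rule did not use. Ikzf2 encodes Helios, a transcription factor typical of regulatory T cells, and it was found in 36 of 40 control members, with 0 to 24 UMIs and a median of 7. In the KO it was found in 8 of 11 members, with 0 to 25 UMIs and a median of 2. Il2ra was found in 25 of 40 and 6 of 11, Cd4 in 30 of 40 and 10 of 11, and Trac, the constant region of the T cell receptor alpha chain, in 32 of 40 and 11 of 11. Ikzf2, Il2ra, Cd4 and Trac were thus each found in most control members. All 5 KO members with Foxp3 had Ikzf2, Il2ra and Trac, and 4 had Cd4. Trac is not specific to regulatory T cells. Tnfrsf18 was found in 27 of 40 and 7 of 11 members. Tnfrsf4 was found in 20 of 40 and 4 of 11, and Izumo1r in 13 of 40 and 3 of 11. Neither Tnfrsf4 nor Izumo1r was thus found in most members of either library. Just outside the thresholds, Tnfrsf18 was found in 1 of 9 control cells and 6 of 7 KO cells. There Ikzf2 was found in 4 and 5 cells, Trac in 5 and 6, Cd4 in 5 and 4 and Il2ra in 2 and 2. Detection of Tnfrsf18, Ikzf2 or Trac thus hardly set the KO members apart from these cells. By summed level, Ikzf2 was at 385 CPM (220 to 626) in these KO cells and at 1290 CPM in the KO members. Cells that entered by Ctla4 alone went against the label in part in both libraries. In the KO, Il2ra and Il1rl1 were each found in 1 of these 6, and Ikzf2 in 3 with 1, 1 and 9 UMIs. In the control, Ikzf2 was found in 10 of these 13, Il2ra in 7 and Il1rl1 in 5. The control cell with 24270 UMIs was among them and had no UMI of Ikzf2, Il2ra or Il1rl1. Il2ra and Cd4 were absent from nearly all B lineage cells, whose median depths were 4127 and 5038 UMIs, with Il2ra in 3 of 144 and 1 of 41 and Cd4 in 0 of 144 and 0 of 41. Pgam1, the targeted gene (chromosome 19, 41911923 to 41918660), gave 12 UMIs over the control and 4 over the KO members, or 52.9 CPM (27.3 to 92.3) and 72.7 CPM (19.8 to 186), so that no difference was detectable at this depth. Its counts are taken at the transcript's 3′ end, and the T cells are not where Cre acts.

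**Figure D1:**
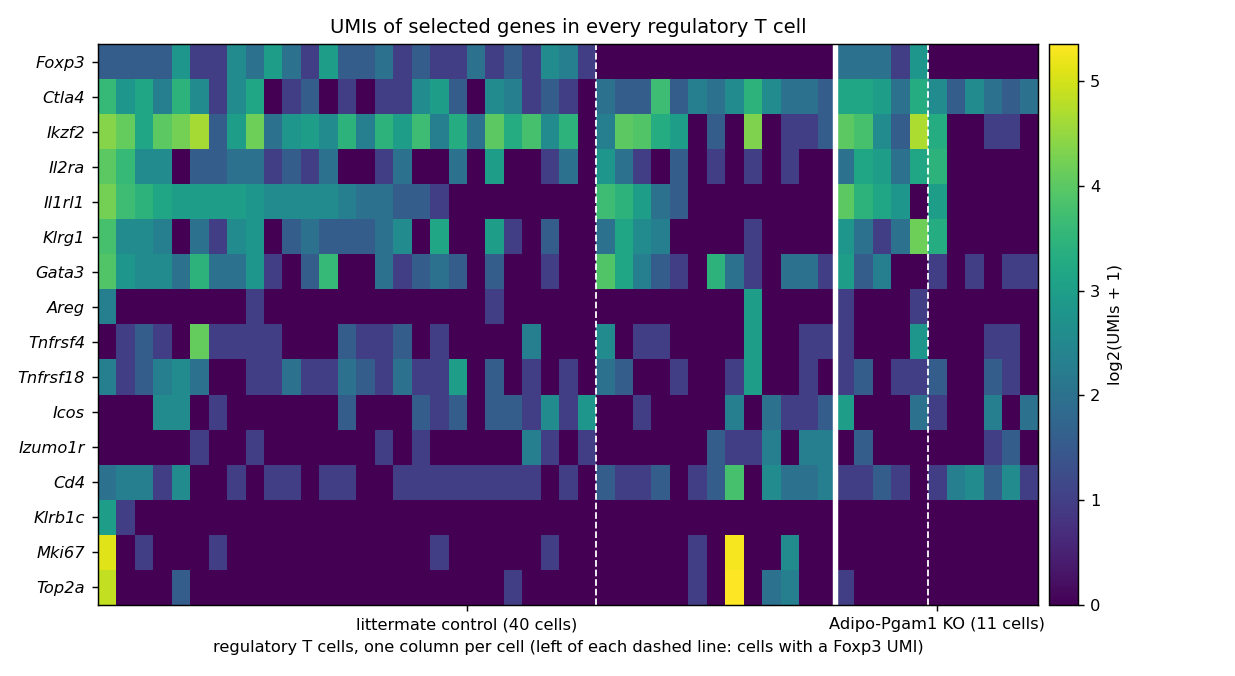
Each column is 1 regulatory T cell, 40 from the littermate control on the left and 11 from the Adipo-Pgam1 KO on the right, and each row a gene. Colour is log2(UMIs + 1), the white line separates the libraries, and cells left of each dashed line carry a Foxp3 UMI. Ikzf2 runs through most columns, Il1rl1 and Klrg1 largely stand in the same cells, and Mki67 and Top2a are brightest in 2 control cells.

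Regulatory T cells made up 8.35% (6.03 to 11.2) of the 479 T cells of the control and 5% (2.52 to 8.77) of the 220 T cells of the KO library. The intervals overlap. Members with Foxp3 were 5.64% (3.75 to 8.10) and 2.27% (0.742 to 5.22) of T cells, whereas members by Ctla4 alone were 2.71% and 2.73%. Members with a UMI of Il1rl1, the gene of ST2, were 5.01% (3.24 to 7.36) and 2.27% (0.742 to 5.22). ST2 protein was not measured, so cells without a UMI are not shown to lack the receptor. Many T cells of this tissue carried natural killer receptor transcripts, and with those left out the shares were 14.0% (36 of 257) and 8.47% (10 of 118). Deeper cells pass a UMI rule more easily, and the median T cell had 4606 UMIs in the control against 6594 in the KO. With every cell thinned to 2000 UMIs, which leaves out 11 and 10 shallower T cells, and with T cells chosen again, the shares were 6.43% (4.28 to 9.22, 27 of 420) and 3.17% (1.17 to 6.78, 6 of 189). Of all filtered cells, members were 1.03% (0.737 to 1.40) and 1.15% (0.575 to 2.05). The order of the libraries therefore depended on the denominator.

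Il1rl1 (chromosome 1, 40429570 to 40465415, forward strand) encodes the receptor for IL-33. Control members had 0 to 18 UMIs with a median of 2.5, and 24 of 40 had at least 1. KO members had 0 to 15 UMIs with a median of 0, and 5 of 11 had at least 1, so the cells of both libraries ranged from none to many. The summed level was 665 CPM (563 to 780) in the control and 836 CPM (612 to 1115) in the KO. KO over control gave a log2 ratio of 0.33 (−0.18 to 0.81), so that over all members no difference was detectable at this depth. The value depended on which cells were counted: it was 0.84 (0.28 to 1.38) among members with Foxp3 and −0.29 (−0.86 to 0.26) among members with no Dcn or C1q UMI. Il1rl1 was higher in group 2 innate lymphoid cells, with 1669 CPM in the control and 1386 CPM in the KO. In CD8-negative conventional T cells, the nearest group, it was 340 CPM (306 to 377) and 706 CPM (644 to 774), below the members in the control and within their interval in the KO. The level was at most 93.0 CPM in T cells with natural killer receptors, CD8 T cells, natural killer cells and macrophages of either library. After thinning, 57.5% of control and 45.5% of KO members kept an Il1rl1 UMI, beside 0.704% of B lineage cells and 0.830% of fibroblasts in the control, whose median depths were 4127 and 11724 UMIs.

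Klrg1 (chromosome 6, 122270596 to 122282882, reverse strand) encodes an inhibitory lectin-like receptor of terminally differentiated and tissue lymphocytes. It had 0 to 13 UMIs with a median of 2 in control members and 0 to 17 with a median of 1 in KO members, and was found in 24 of 40 and 6 of 11. Its level was 440 CPM (358 to 536) in the control and 709 CPM (504 to 969) in the KO, where 1 cell held 43.6% of the UMIs. KO over control gave a log2 ratio of 0.69 (0.11 to 1.23), and 0.25 (−0.33 to 0.81) without the 6 control cells with cell cycle transcripts described below. Group 2 innate lymphoid cells had 443 CPM (391 to 500) and 432 CPM (342 to 540), and conventional T cells 101 CPM (82.9 to 122) and 109 CPM (85.2 to 137). The members thus lay within the interval of the former or above it, and above the latter in both libraries. No Klrg1 UMI was found in 144 control and 41 KO B lineage cells. Of Il1rl1, Klrg1, Gata3 and Areg, Klrg1 was the one whose interval for the ratio to conventional T cells lay above 2-fold in the control (2.12, 1.72 to 2.53) and in the KO (2.70, 2.10 to 3.28).

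Gata3 (chromosome 2, 9857078 to 9890034, reverse strand) encodes the transcription factor that directs type 2 lymphocyte programmes. Control members had 0 to 14 UMIs with a median of 2, and 30 of 40 had at least 1. KO members had 0 to 7 UMIs with a median of 1, and 7 of 11 had at least 1, with 41.2% of the UMIs in 1 cell. The level was 586 CPM (490 to 694) in the control and 309 CPM (180 to 494) in the KO, a log2 ratio of −0.92 (−1.75 to −0.19). Among members with Foxp3 the ratio was −0.25 (−1.22 to 0.61), and among members by Ctla4 alone the levels were 527 CPM (391 to 694) in the control and 131 CPM (35.7 to 336) in the KO. Against conventional T cells Gata3 was higher in the control (0.77, 0.47 to 1.06) and lower in the KO (−1.03, −1.82 to −0.33), where the value with Foxp3 members alone was −0.25 (−1.17 to 0.54). Conventional T cells themselves had 343 CPM of Gata3 in the control and 629 CPM in the KO. Group 2 innate lymphoid cells, which were chosen by Gata3, had 1270 and 887 CPM.

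Areg (chromosome 5, 91139599 to 91148432, forward strand) encodes amphiregulin, a growth factor for tissue repair. It was sparse in these cells. There were 13 UMIs in 4 of 40 control members, 7 of them in 1 cell, and 2 UMIs in 2 of 11 KO members. The level was 57.3 CPM (30.5 to 97.9) in the control, and the KO count lay under the limit of 3 UMIs. All 4 control cells with Areg also had Klrg1, Gata3, Ikzf2 and Il2ra UMIs. Group 2 innate lymphoid cells had 40.4 CPM (25.9 to 60.2) and 44.3 CPM (19.1 to 87.4) of Areg, which lies within the control members' interval. Conventional T cells had 1 UMI of Areg in the control against 91 in the KO, the latter in 8 of 96 cells with 46.2% in 1 cell. Pparg, the adipogenic nuclear receptor also known from visceral fat regulatory T cells, had 4 and 1 UMIs in the members, too few to compare.

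**Figure D2:**
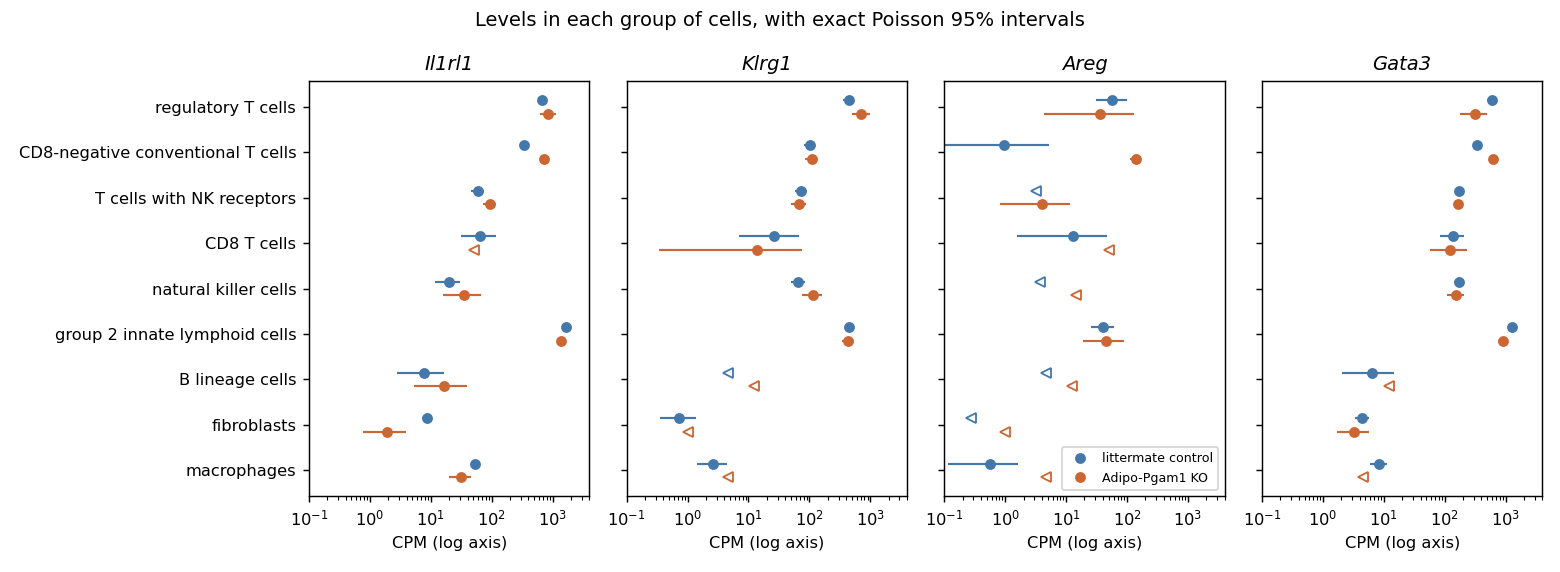
Levels of Il1rl1, Klrg1, Areg and Gata3 in each group of cells, as CPM on a log axis, for the littermate control (blue) and the Adipo-Pgam1 KO (orange). Points are summed levels, lines exact Poisson 95% intervals cut at the left edge, and open triangles the upper limit where no UMI was found. Regulatory T cells and group 2 innate lymphoid cells lead for Klrg1 in both libraries, whereas conventional T cells of the KO reach the regulatory T cells for Il1rl1 and lie above them for Gata3.

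Members differed among themselves in the visceral fat genes. Of the 24 control members with an Il1rl1 UMI, 20 also had Klrg1, 21 Gata3, 24 Ikzf2 and 18 Il2ra. Of the 16 without Il1rl1, 4 had Klrg1, 9 Gata3, 12 Ikzf2 and 7 Il2ra. The median depth was 3850.5 UMIs with Il1rl1 and 4736.5 UMIs without it, and its part in these counts was not tested. In the KO all 5 cells with Il1rl1 had Klrg1, Ikzf2 and Il2ra and 4 had Gata3, beside 1, 3, 1 and 3 of the 6 without it. Because the split uses these cells' own counts, it is given as a description.

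Other genes lay on the opposite side of this split. Tcf7, a transcription factor of naive and memory-like T cells, had 2 UMIs in control members with Il1rl1 and 32 in those without, and 0 and 11 in the KO. A single cell held 50% of the control and 36.4% of the KO UMIs. By cells, Tcf7 was found in 2 of 24 with Il1rl1 and 8 of 16 without in the control, and in 0 of 5 and 4 of 6 in the KO. Izumo1r, the folate receptor FR4 of regulatory T cells, was found in 4 of 24 control members with Il1rl1 and 9 of 16 without. Icos, a co-stimulatory receptor, was at 148 CPM (86.1 to 237) in control members with Il1rl1 and 268 CPM (181 to 382) in those without, so that the intervals overlapped, and at 336 and 320 CPM in the KO. Ly6a, which encodes the interferon-inducible surface protein Sca-1, was at 104 and 509 CPM in the control and at 715 and 736 CPM in the KO. Tcf7 thus went the same way in both libraries, whereas Ly6a differed by more than the counting error in the control and not in the KO.

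The marker by which a cell entered made a similar division for some genes and not for others. Members with Foxp3 had 886 CPM of Il1rl1 in the control and 1588 CPM in the KO, and members by Ctla4 alone had 358 and 230 CPM. Ikzf2 was at 1961 and 2444 CPM with Foxp3 and at 779 and 361 CPM by Ctla4 alone. Il2ra was at 538 and 1181 CPM with Foxp3 and at 158 and 328 CPM by Ctla4 alone. Tcf7 went the other way, with 45.4 CPM (control) and no UMI (KO) in members with Foxp3 and 295 and 361 CPM in members by Ctla4 alone. A single cell held 50% of the 34 control Tcf7 UMIs. Cd4 was at 235 and 204 CPM with Foxp3 and at 390 and 590 CPM by Ctla4 alone, but the intervals overlapped in both libraries. The control cell with 24270 UMIs held 13 of the 37 control Cd4 UMIs by Ctla4 alone. This cell and control cells with 13916 and 10162 UMIs held a large part of the 94952 UMIs of that group. They had no Il1rl1 UMI and 0, 1 and 0 of Ikzf2, which lowers both control levels by Ctla4 alone. The levels without them were not computed. By cells, Ikzf2 was found in 26 of 27 control members with Foxp3 and 10 of 13 by Ctla4 alone, and Il1rl1 in 19 and 5. Gata3 did not divide in this way by cells. It was found in 19 of 27 and 3 of 5 members with Foxp3 and in 11 of 13 and 4 of 6 by Ctla4 alone. Izumo1r was at 75.7 and 81.5 CPM with Foxp3 and at 169 and 98.4 CPM by Ctla4 alone. For both genes the intervals of the levels overlapped in each library. The share of members that entered by Ctla4 alone was 13 of 40 in the control and 6 of 11 in the KO, so that a ratio between the libraries over all members also carries this difference in make-up.

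**Figure D3:**
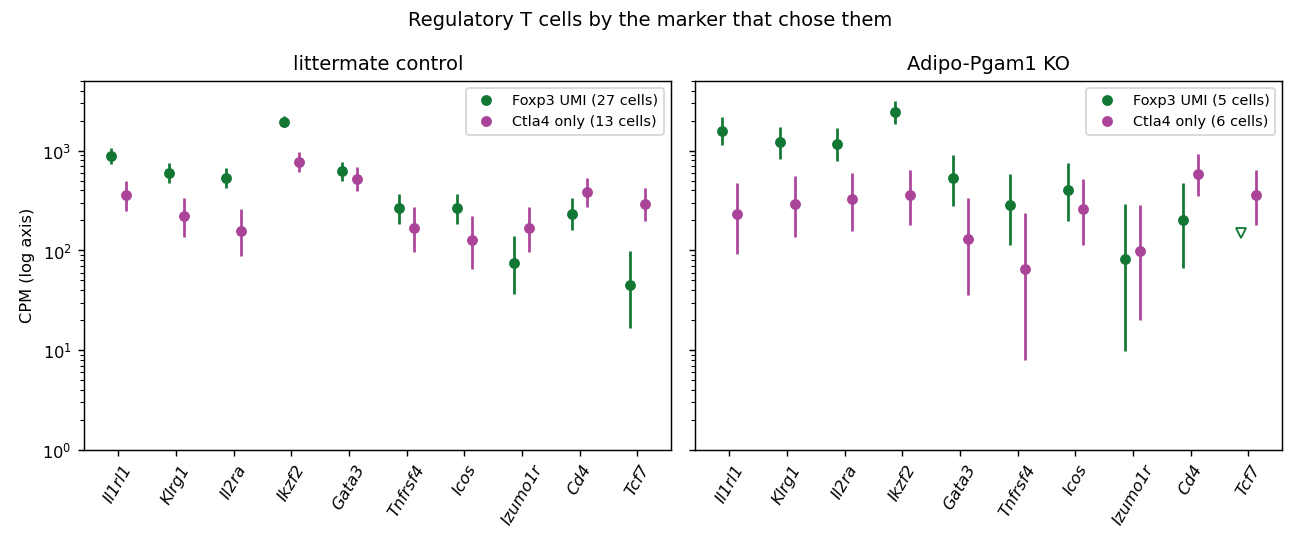
Levels of 10 genes as CPM on a log axis in regulatory T cells that carry a Foxp3 UMI (green) and in those that entered by Ctla4 alone (purple), with exact Poisson 95% intervals. An open triangle is the upper limit where no UMI was found. In both libraries Il1rl1, Klrg1, Il2ra and Ikzf2 are higher in cells with Foxp3, and Tcf7 in cells by Ctla4 alone. Cd4 is also higher in the latter, with overlapping intervals. The intervals of Gata3, Tnfrsf4, Icos and Izumo1r overlap in both libraries.

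Regulatory T cells were then set against CD8-negative conventional T cells of the same library, 188 cells in the control and 96 in the KO. These had no Foxp3 UMI, at most 1 of Ctla4 and no natural killer receptor UMI. They were no pure reference: 86 and 34 of them had a UMI of a gamma-delta T cell gene, and macrophage and dendritic markers summed to 5069 and 3803 CPM beside 647 and 309 CPM in the members, with 22.0% and 49.2% of the conventional UMIs in 1 cell. Markers of unconventional T and natural killer cells summed to 1407 and 1186 CPM there and to 291 and 309 CPM in the members. Of these member UMIs 95.5% (control) and 70.6% (KO) lay in 1 cell, and the median member had none. Markers of group 2 innate lymphoid cells summed to 281 and 776 CPM there and 577 and 145 CPM in the members. Here 42.7% and 50% of the member UMIs lay in 1 cell, and the median member again had none. Fibroblast markers were at 643 and 584 CPM there and 621 and 273 CPM in the members, and B lineage markers at 128 and 122 CPM and at 273 and 145 CPM. Genes with at least 20 UMIs over both groups were compared, and a gene counts as higher or lower from 2-fold on, without a test. Of 7439 genes in the control, 5.07% (377) were higher and 9.62% (716) lower in regulatory T cells. Of 5189 genes in the KO, 9.98% (518) were higher and 3.37% (175) lower, and this split turned to 227 higher and 365 lower with edgeR's TMM scaling, which moves every log2 ratio by −0.30 in the KO and by −0.08 in the control. Over all genes the median log2 ratio was −0.04 (control) and 0 (KO). Of 5127 genes compared in both libraries, 63 were higher in both and 61 lower in both, and 24 went in opposite directions. Against the conventional cells with Trac and no gamma-delta UMI, 313 genes were lower in the control and 272 higher in the KO.

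The core genes of regulatory T cells were mostly on the higher side. Of the 18 genes listed, 15 could be compared in the control, of which 8 were at least 2-fold higher and none lower, with a median log2 ratio of 1.08, and 10 in the KO, of which 5 were higher and none lower, with a median of 0.98. Ikzf2 was 2.90 (2.65 to 3.16) higher on the log2 scale in the control and 3.76 (3.25 to 4.27) in the KO, where 35.2% of its UMIs were in 1 cell. Tnfrsf4, which encodes the co-stimulatory receptor OX40, was 4.72 (3.69 to 5.93) and 1.90 (0.63 to 3.02) higher, with 66.7% of its 9 KO UMIs in 1 cell. Il2ra gave 1.08 (0.69 to 1.45) and 1.10 (0.57 to 1.60), and Izumo1r 2.34 (1.48 to 3.20) and 1.45 (−0.31 to 2.88). Tnfrsf18, which encodes GITR, was 1.60 (1.12 to 2.07) higher in the control, and its KO value was 0.32 (−0.78 to 1.26). Nrp1 and Capg, a semaphorin receptor and an actin-capping protein, were under 2-fold in both libraries. Named after their values were seen, Ikzf4 (Eos), Tnfrsf9 (4-1BB) and Cd83 were the remaining higher genes of the control, at 3.54, 3.50 and 2.35, and Il2rb, the interleukin-2 receptor beta chain, that of the KO, at 1.89 (0.98 to 2.72).

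The list of tissue and adipose regulatory T cell genes was less uniform. Of 26 genes listed, 20 and 21 could be compared. In the control 6 of 20 were higher and 2 lower, with a median of 0.30, and in the KO 4 of 21 were higher and 4 lower, with a median of 0. Klrg1, the chemokine receptor gene Ccr1 and the transcription factor genes Prdm1 (Blimp-1) and Batf were at least 2-fold higher in both libraries. Ccr1 gave 2.69 (1.58 to 3.84) and 1.85 (0.59 to 2.96), and Prdm1 1.85 (0.84 to 2.83) and 2.17 (0.53 to 3.60). Il18r1, a receptor chain for interleukin-18, was lower in both, at −1.71 (−2.52 to −1.01) and −1.49 (−5.14 to −0.18). Il1rl1 gave 0.97 (0.68 to 1.25) in the control and 0.24 (−0.23 to 0.68) in the KO, where the direction turned with TMM scaling (−0.05). With Foxp3 members alone it gave 1.38 (1.07 to 1.69) and 1.17 (0.66 to 1.64). Against the conventional T cells with a Trac UMI and no gamma-delta UMI, 58 and 47 cells, Il1rl1 was 2.08 higher in the control and 0.12 in the KO, and Klrg1 3.90 and 2.87. Rora, a nuclear receptor of type 2 lymphocytes, gave 0.84 (0.53 to 1.14) and 0.09 (−0.67 to 0.77), and Maf, a transcription factor of interleukin-10-producing T cells, −0.31 (−0.63 to −0.01) and 0.83 (0.34 to 1.29), with 40.9% of its KO UMIs in 1 cell. The other members past 2-fold, named after their values were seen, were Irf4 (2.01), Il9r (1.01) and, lower on 2 UMIs, Atf3 in the control and Zeb2 (−2.07) in the KO, beside Gata3 and Areg.

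Genes of naive and recirculating T cells were lower in the members of the control library. Of 12 compared there, 8 were at least 2-fold lower and none higher, with a median of −1.27, and in the KO 4 were lower and 1 higher, with a median of −0.47. Satb1, a chromatin organiser that is low in regulatory T cells, gave −1.92 (−2.70 to −1.24) and −0.64 (−1.57 to 0.16), and 84.6% of its 13 KO UMIs were in 1 cell. Tcf7 gave −1.10 (−1.65 to −0.59) and −0.50 (−1.53 to 0.37). Bach2, Igfbp4 and Ramp1 were at least 2-fold lower in both libraries. Dapl1, named after its value was seen, was the gene higher in the KO, with all 7 UMIs in 1 cell. Against conventional cells without naive T cell markers, which are themselves on the list, the control median was 0.069.

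T cell receptor components and homing receptors leaned to the higher side. Of 13 T cell identity genes, 4 were higher and none lower in the control and 3 higher and 2 lower in the KO. Cd4 gave 1.37 (0.92 to 1.80) and 1.54 (0.81 to 2.21), Cd2 1.67 (1.18 to 2.14) and 1.23 (0.44 to 1.95), and Trac 1.38 (1.08 to 1.67) and 0.95 (0.35 to 1.52). Cd6, a co-receptor of T cell activation, gave 1.05 and 1.36. Among the lower genes of the KO was Thy1 (−1.09), named after its value was seen. Trac was detected in 85 of 188 and 60 of 96 conventional cells. Of the chemokine receptors and homing molecules 2 of 12 were higher in the control and 6 of 10 in the KO, with none lower. Of all genes compared, 5.07% and 9.98% were higher. Itga4, an integrin chain for tissue entry, was higher in both, at 1.04 (0.75 to 1.32) and 1.29 (0.80 to 1.75), with 42.6% of its KO UMIs in 1 cell. The second gene of the control was Ccr9 (2.36, 0.98 to 3.75), named after its value was seen. Cd69, a receptor that retains lymphocytes in tissue, gave 0.43 (0.01 to 0.84) and 1.12 (0.63 to 1.58), with 50% of its 46 KO UMIs in 1 cell. TMM scaling moves every ratio by −0.08 in the control and −0.30 in the KO. Itga4 in both libraries and Cd69 in the KO then fell under 2-fold, so these counts depended on the scaling.

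Among co-inhibitory and co-stimulatory receptors 3 of 10 were higher and 1 lower in the control, and 2 of 7 higher and none lower in the KO. Tnfrsf1b, which encodes the tumour necrosis factor receptor TNFR2, gave 1.98 (1.33 to 2.63) and 0.59 (−1.37 to 2.08), and the inhibitory receptor gene Cd200r1 1.75 (1.07 to 2.42) and 0.78 (−0.75 to 2.02). Icos gave 0.83 (0.32 to 1.33) and 2.03 (1.17 to 2.82). Cd5, a brake on receptor signals, was the second gene of the KO at 1.54, and Cd200 (1.09) and Cd96 (−1.30), named after their values were seen, were the third higher and the lower gene of the control. Effector cytokines were few: 1 of 8 was higher and 2 lower in the control, and 2 of 6 higher in the KO. The control gene was Xcl1, whose 20 UMIs were all in 1 cell, and 74.5% of the 51 Ccl5 UMIs of the KO were in 1 cell, so neither value describes the members at large. The rest, named after their values were seen, were Tnf (1.59, 0.15 to 2.81) in the KO and Cd40lg and Csf2, with 3 and 0 UMIs, in the control.

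Of the metabolic lists, glycolysis stayed near the median of all genes. None of 14 glycolytic genes in the control and none of 12 in the KO was 2-fold higher or lower, with medians of 0.04 and 0.00054. Gapdh gave 0.11 (−0.20 to 0.41) and 0.62 (0.15 to 1.05). Among genes of lipid handling 1 of 19 was higher and 3 lower in the control, and 4 of 14 higher and 2 lower in the KO. The medians were 0.09 and 0.21. Of all genes compared, 5.07% were higher and 9.62% lower in the control, and 9.98% higher and 3.37% lower in the KO. The adipocyte and endothelial lipid-uptake genes Fabp4 and Cd36 were lower in both, at −5.07 and −1.82 in the control and −2.18 and −1.19 in the KO. Endothelial and mural markers summed to 951 and 1160 CPM in the conventional cells and 145 and 164 CPM in the members, and their part in these values was not tested. Dgat1, an enzyme of triglyceride synthesis, gave 2.59 (1.61 to 3.60) and 0.62 (−0.90 to 1.85), and Fabp5, a fatty acid-binding protein, 0.59 (−0.22 to 1.34) and 2.59 (1.33 to 3.75) with 70% of its KO UMIs in 1 cell. Plin2 gave 0.38 and 1.11. Named after their values were seen, Lpl (−2.55) was the third lower gene of the control, and Srebf1, a regulator of lipid synthesis, was just at 2-fold in the KO.

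Genes of receptor signalling and of the interferon response were compared next. Of the T cell receptor signalling and immediate early genes 2 of 17 were higher and 1 lower in the control, and 2 of 16 higher in the KO, with medians of 0.43 and 0.24. The interval lay above 0 for 8 and below 0 for 4 of the 17 control genes. Nr4a2, an orphan nuclear receptor induced by receptor signals, was higher in both, at 2.41 (1.28 to 3.56) and 1.08 (−1.33 to 2.87), on 16 and 3 UMIs. The others were Cd69 in the KO and, named after their values were seen, Rel (1.13) and Egr1 (−1.15) in the control. Of the interferon-stimulated genes 1 of 9 was higher in the control, and 3 of 11 were higher and 1 lower in the KO. Ifi27l2a was higher in both, at 1.57 (1.22 to 1.91) and 1.22 (0.73 to 1.68). Zbp1 (1.42) and Gbp2 (−1.27), named after their values were seen, were further genes past 2-fold in the KO, where 1 cell held 70% of the Zbp1 UMIs.

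**Figure D4:**
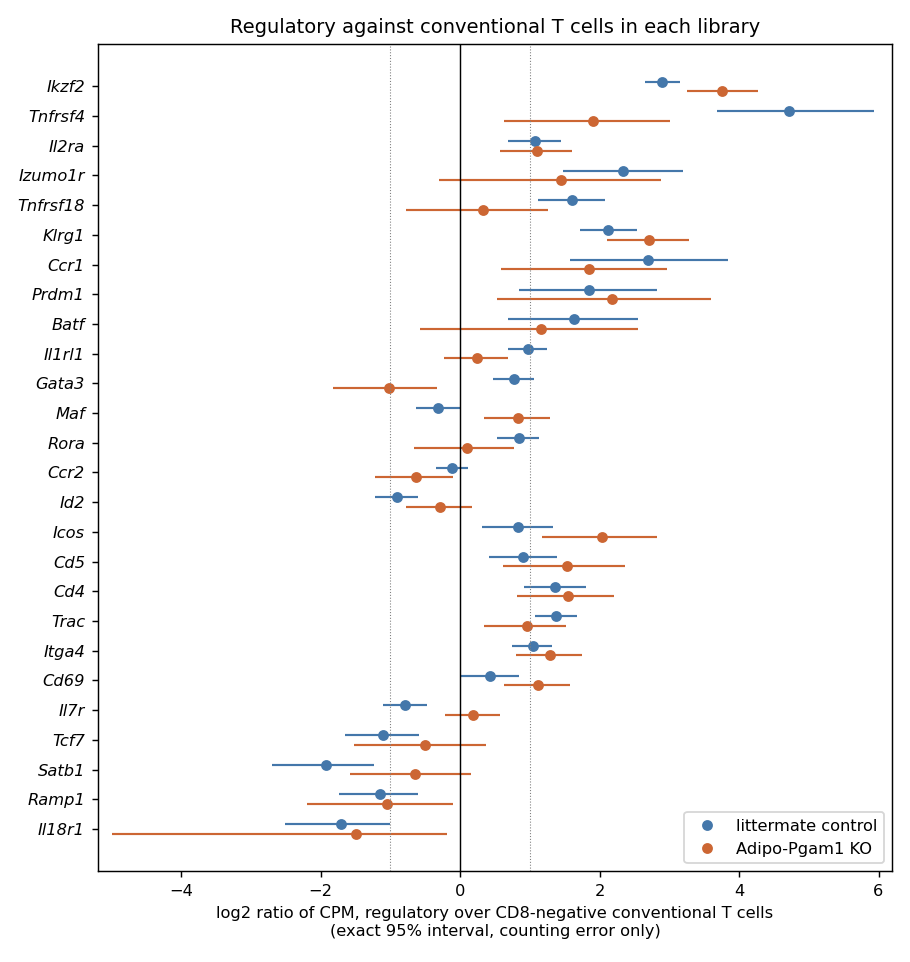
Log2 ratio of CPM in regulatory over CD8-negative conventional T cells for 26 listed genes, in the littermate control (blue) and the Adipo-Pgam1 KO (orange), with exact 95% intervals for counting error. Dotted lines mark 2-fold. Ikzf2, Klrg1 and Il2ra lie to the right in both libraries, Il18r1 and Ramp1 to the left in both, and Gata3 and Maf change sides.

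A ranking over all genes with at least 50 UMIs in the control and the same direction in the KO gave names beyond the lists. After Tnfrsf4 and Ikzf2 came Lztfl1, which encodes a regulator of ciliary trafficking, with 2.40 (1.84 to 2.95) in the control and 3.21 (2.21 to 4.19) in the KO. Next were Izumo1r, Arl5a (an Arf-like GTPase; 2.26 and 2.17), Sytl2 (a Rab27 effector; 2.13 and 1.51), Klrg1 and Vps54 (a subunit of the GARP tethering complex; 2.01 and 0.85). Glrx, which encodes glutaredoxin, gave 1.94 (1.34 to 2.53) and 2.71 (1.80 to 3.58). Gimap7, a GTPase of lymphocytes, gave 1.90 (1.32 to 2.47) and 2.61 (1.93 to 3.27), Gadd45b, a stress-response gene, 1.94 and 1.85, and Tox, a nuclear regulator of chronically stimulated T cells, 1.76 and 2.36. Tnfrsf1b, Nav2 and Cd200r1 were also among the 15, and 6 genes were passed over because 1 cell held over 33.3% of the UMIs.

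The lowest ratios named what the members lacked. Trdc, the constant region of the T cell receptor delta chain, had 2 and 0 UMIs in the members and 511 and 285 in conventional T cells. Cd163l1 and Tcrg-C1, both of gamma-delta T cells, had none in the members of either library. The antigen presentation genes Cd74, H2-Aa, H2-Ab1 and H2-Eb1 were at least 2-fold lower in both libraries, with Cd74 at −3.84 (−4.43 to −3.30) and −3.11 (−4.57 to −1.98), and 1 conventional cell of the KO held 87.0% of its Cd74 and 96.3% of its H2-Eb1 UMIs. Rgs5, a gene of mural cells, had 0 UMIs in the members of both libraries and 548 and 102 in conventional T cells, with 22.3% and 89.2% of these in 1 cell. Timp3 and Tmem176b completed the 10. These are genes of gamma-delta T cells, antigen-presenting cells and vessel walls, and apart from the reference with Trac their part in the other ratios was not tested.

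Between the libraries, 2378 genes with at least 20 UMIs in the members were compared, of which 7.57% (180) were higher and 7.36% (175) lower in the KO by 2-fold or more. The interval lay clear of equality for 119 and 72 of them. Without the deep and the haemoglobin-rich control cells, 119 genes were higher. With TMM scaling, which moves every ratio by −0.18, the split was 110 and 296, so that the balance between the directions depended on the scaling. Il2ra gave 0.90 (0.32 to 1.47), Ikzf2 −0.19 (−0.58 to 0.19) and Cd4 0.48 (−0.27 to 1.18). Of 9 core genes of regulatory T cells 2 were higher, Il2rb (1.80, 0.74 to 2.83) and Socs2 (1.21, 0.15 to 2.21), both named after their values were seen, and none lower, with a median of −0.08, and of 15 tissue and adipose genes 1 was higher and 1 lower, with a median of 0.30. The single tissue gene above 2-fold was Ccr1 (1.04, −0.29 to 2.27), and the one below was Zeb2 (−1.42, −5.10 to −0.03), named after its value was seen, on 2 KO UMIs.

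The immediate early genes were higher in the KO members. Of 12 compared, 6 were at least 2-fold higher and none lower, with a median of 0.90, and the interval lay above 0 for 9. Dusp1, a phosphatase of MAP kinases, gave 1.05 (0.66 to 1.44) with 52.4% of its KO UMIs in 1 cell, Nfkbia, the inhibitor of NF-κB, 1.14 (0.70 to 1.57), and Zfp36, an RNA-destabilising protein, 1.01 (0.55 to 1.46). Cd69 gave 1.57 (0.99 to 2.14), and 1 cell held a large part of its KO UMIs, as given above. With TMM scaling, which moves every ratio by −0.18, Nfkbia, Dusp1 and Zfp36 fell under 2-fold, so the count of 6 depended on the scaling. The summed level of the list was 7153 CPM in control and 12190 CPM in KO members, with 24.4% of the KO UMIs in 1 cell. In single cells it ran from 720 to 36642 CPM in the control and from 2036 to 38556 CPM in the KO, so the libraries overlapped. In conventional T cells the sum was 6055 and 10777 CPM, the same order of the libraries. That order also held in group 2 innate lymphoid cells (11314 and 18095 CPM), B lineage cells (3712 and 6341 CPM) and natural killer cells (3608 and 4053 CPM). The higher sum in the KO was thus not particular to the members.

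Of 6 interferon-stimulated genes 3 were higher in the KO, among them Ly6a (1.26, 0.66 to 1.84) and Ifi47 (1.41, 0.02 to 2.72), but 77.8% of the Ifi47 UMIs of the KO were in 1 cell. Of 7 naive and recirculating genes 2 were higher, Satb1 (1.57, 0.42 to 2.69) and Il7r, the interleukin-7 receptor (1.31, 0.82 to 1.79), of which only Il7r was spread over cells, with 23.7% in the highest. Of 6 lipid genes 2 were higher, Fabp5 (1.04, −0.21 to 2.21) and Plin2, a lipid droplet protein (1.04, 0.08 to 1.95). Of 7 glycolytic genes 1 was lower, Gpi1 (−1.21, −2.58 to −0.09), and Gapdh gave 0.82 (0.30 to 1.32). None of the 13 T cell identity genes reached 2-fold. Of 4 effector cytokine genes Ccl5 was higher (2.32, 1.71 to 2.95), of 7 co-receptors Tnfrsf1b was lower (−1.24, −3.19 to 0.23), and of 9 homing genes Cd69 was higher. Single cells held 74.5% of the KO and 57.1% of the control Ccl5 UMIs, so the Ccl5 ratio does not describe the members at large.

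In the ranking of single genes the highest in the KO were Rassf1 (2.42, 1.12 to 3.77), the unannotated 4833403J16Rik (2.33), Dgka (2.14, 0.99 to 3.30), which encodes a diacylglycerol kinase that dampens receptor signals, and Gbp4 (2.13, 1.09 to 3.17), an interferon-inducible GTPase. Vps37b, Parp14 and Tox2 followed between 2.04 and 1.91. Each of these had 10 to 18 UMIs in the KO. The lowest were H2afv, a histone variant (−2.42, −4.32 to −1.01), Gm9843 (−2.18), Ndufb7 of respiratory complex I (−2.15), Mrpl52 of the mitochondrial ribosome (−2.02), Anp32e, a histone chaperone (−1.89), Hdac7 (−1.83), Rps12-ps3 (−1.83) and Eif5b (−1.81). The KO had 1 to 4 UMIs of each. Rps12-ps3 is a pseudogene whose reads can be shared with Rps12, and its value is uncertain. The rankings passed over 9 and 13 genes that 1 cell dominated.

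Cells with cell cycle transcripts were found among the control members. Of 40 control members 6 (15%, 5.71 to 29.8) had at least 2 UMIs of Mki67, Top2a, Birc5 and Ube2c, and of 11 KO members 0 did (0%, upper bound 28.5%). The 2 cells over 20000 UMIs held 215 of the 239 UMIs of these genes. The first had 24270 UMIs, no Foxp3 and 5 Ctla4 UMIs. The second had 23714 UMIs, 2 of Foxp3, 11 of Ctla4 and 18 of Il1rl1, but also 7 of Klrb1c, 7 of Ncr1 and 25 of Gzma, which are natural killer cell genes. Removing the highest Scrublet doublet scores, an alternative given below, took out 3 control members. Whether this cell was among them is not given here, and whether it held 1 cell or more was not tested further.

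The cell cycle ratios rested on those cells. Of 9 cycle genes 8 were at least 2-fold lower in the KO, with a median of −1.92, and of 13 genes 11 were at least 2-fold higher than in conventional T cells of the control, with a median of 2.67. Without the 6 cells that pass this rule the latter median was −0.13. Because the genes of the rule are themselves on the list, a fall was built into this removal. After thinning to 2000 UMIs 1 of 27 control members still passed. Haemoglobin genes were uneven in the same way: they reached 31985 CPM in control and 890 CPM in KO members, and 97.0% of the control UMIs lay in 2 cells with 3324 and 3720 haemoglobin UMIs, beside a median of 5 per cell. The KO members otherwise had no more than 9. Arg1, a gene of group 2 innate lymphoid cells and macrophages, had 56 UMIs in the control, all in 1 cell.

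**Figure D5:**
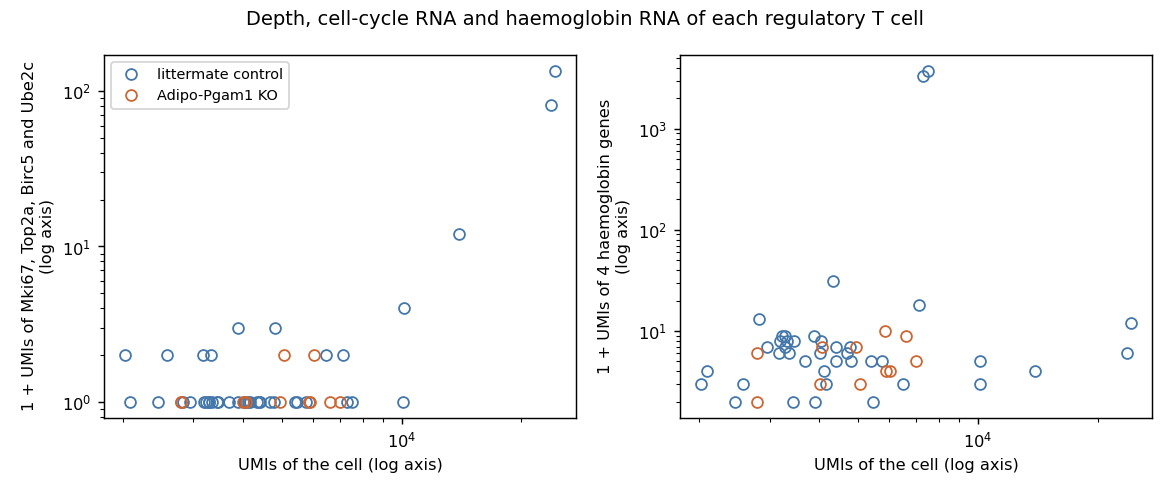
Each circle is a regulatory T cell of the littermate control (blue) or the Adipo-Pgam1 KO (orange), plotted by its UMIs and by 1 + the UMIs of 4 cell cycle genes (left) or of 4 haemoglobin genes (right), all on log axes. The 2 control cells over 20000 UMIs hold most of the cycle UMIs, and 2 other control cells hold 97.0% of the control haemoglobin UMIs.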

How the data were processed

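The deposited files hold whole-number UMI counts per gene and barcode without normalization, made by the authors with Cell Ranger 3.0.1 from Chromium 3′ v3 libraries on mm10 (the submitters' notes also name Seurat 3.1.5 and R 4.0.1). They hold 8522 control and 2730 KO barcodes and 28692 genes. Erythrocytes had been lysed, and no cell sort is described. Members were taken with the rule in the report, UMIs were summed per library and group, and levels were divided by all UMIs of the group (CPM). Intervals are exact (Poisson, Clopper-Pearson, conditional binomial; 95%). In ratios, counts under 3 were set to 3, or the ratio to 0 where that would turn its direction, a refinement made after the files were seen. Depth per group is given in the report. Doublets were not removed, and removing the highest Scrublet scores, 0.8% per 1000 barcodes, was an alternative. The steps were tested on simulated counts.

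Named genes are the markers, Pgam1, up to 6 genes of each list with the most UMIs, any listed gene past 2-fold the same way in both libraries, the 15 highest and 10 lowest ratios to conventional T cells (at least 50 UMIs) and the 8 highest and 8 lowest of KO to control. Genes with over 33.3% of the UMIs in 1 cell were passed over. Members, lists and comparisons were chosen with earlier results of these data known. The 16 listed alternatives change the gates, cell filters, depth, scaling, weights, UMI minimum and reference cells, and 4 were added after seeing the data. Gene positions are those of GENCODE for GRCm38, which held 28339 of the gene IDs. Tools were scanpy 1.11.5 with pandas 2.3.3, scipy 1.17.1 and numpy 2.4.6 in Python 3.11.15, and edgeR 4.0.16 in R 4.3.3 for scaling factors only. Some genes that meet the naming rule are not reported here.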

Additional observations from a re-analysis of the deposited data

Results flagged for a closer look

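For 8 of the listed or ranked genes the log2 ratio of regulatory to conventional T cells had an interval above 0 in one library and below 0 in the other. The difference between the libraries was not tested, since there was 1 library each. The values for control and KO were 0.77 and −1.03 for Gata3, −0.31 and 0.83 for Maf, −0.69 and 0.70 for Ier2, an immediate early gene, and 0.22 and −0.26 for Junb, a subunit of the AP-1 factor. They were −1.65 and 1.59 for Dapl1, a gene of naive T cells, −1.04 and 1.70 for Rassf1, 0.74 and −1.37 for Anp32e, and 0.63 and −2.58 for Arg1. Ier2 and Dapl1 lie outside the naming rule and were named after their values were seen. All 56 control UMIs of Arg1 and all 7 KO UMIs of Dapl1 were in 1 member, and the KO members had 1 UMI each of Arg1 and Anp32e. Conventional T cells differed between the libraries as well: markers of group 2 innate lymphoid cells summed to 281 CPM in the control and 776 CPM in the KO, and their part in the Gata3 values was not tested.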

How the results depend on the processing

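A value counts as moved when it leaves its interval, a count when it changes over 1.5-fold, and a ratio as reversed only when its interval excluded 0 before the sign turned. Of 167 alternative values of the main results 114 stayed, 53 moved and none reversed, though Il1rl1, whose intervals held 0, turned sign in 5 of them: KO to control to −0.29 (no Dcn or C1q), −0.04 (dividing cells out) and −0.0098 (1000 genes), and KO against conventional to −0.05 (TMM) and −0.15 (reference without naive markers). Of 532 for single genes and lists 458 stayed, 69 moved and 5 reversed. Unless stated, the cause was not tested.

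With Foxp3 alone (27 and 5 members) the shares were 5.64% and 2.27%, Il1rl1 was 0.84 KO to control and 1.38 (control) and 1.17 (KO) to conventional cells, lower KO-to-control genes were 76, and genes higher and lower than conventional were 571 and 418 in the control and 1313 and 90 in the KO. Without natural killer receptor cells the control share was 14.0%, and among Trac cells without gamma-delta UMIs the shares were 13.5% and 9.82%. At 1000 genes and 5% mitochondrial UMIs (8 and 2 members) the counts were 60 higher and 25 lower KO to control, 227 and 321 (control), 37 lower (KO), and Klrg1 KO to control reversed to −0.70. With no Dcn or C1q UMI (16 and 9 members) they were 60 and 53, 191 lower (control) and 308 higher (KO), Il1rl1 was −0.29 KO to control, 1.63 and 0.79, and the cell cycle medians reversed to 0.039 KO to control and −0.24 (control). Thinned Il1rl1 was 0.83 KO to control.

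TMM gave 110 higher and 296 lower KO to control and 227 and 365 in the KO, and median-of-ratios 115 and 295, and 270 and 305. With at least 10 UMIs 471, 645 and 1498 genes were higher KO to control, in the control and in the KO. With at least 50 they were 47, 152 and 152 higher, and 45 and 339 lower KO to control and in the control, since fewer genes were compared.

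With a reference without naive T cell markers, Il1rl1 was 0.46 (control), 295 genes were higher (KO) and the control naive median reversed to 0.069. With natural killer receptor cells in it, Il1rl1 was 1.66 and 0.96 and 1172 genes were higher (KO). With at least 2 CD3 UMIs Il1rl1 was 1.27 (control). Chosen after seeing the data, the Trac reference gave 2.08 for Il1rl1 and 313 lower genes (control) and 272 higher (KO). Leaving out dividing cells gave 1.34 for Il1rl1 and a cell cycle median of −0.13 (control), and leaving out deep and haemoglobin-rich cells 119 higher genes KO to control.

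No paired analysis was possible because each genotype had 1 library. The KO members' 55045 UMIs limit every ratio: 3 UMIs are 54.5 CPM there.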
